A study of Drosophila melanogaster with 78 samples.

Results

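Cytochrome P450 genes of Drosophila melanogaster were followed across 24 groups of female flies, made up of 2 genotypes, 4 dissected tissues and 3 ages. The members were the genes of the transcript table whose symbol starts with Cyp and a digit. Their level was the FPKM (fragments mapped to a transcript, scaled by its length and by all mapped fragments) summed over the transcripts of the gene. Of 17394 genes, 86 met this rule. Cyp1 was among them, but it encodes cyclophilin 1, a peptidyl-prolyl isomerase and not a P450, and was left out. The remaining 85 genes had 116 transcripts, and 3 of the genes were pseudogenes. They lay on chromosome arms 2R (35 genes), 3R (16), 2L (14), X (14) and 3L (6). P450 genes with other kinds of symbols, such as the Halloween genes of ecdysone synthesis (phm, dib, sad, shd, spo and spok), did not meet the rule.

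The dilp 2-3,5 flies lacked the genes for the insulin-like peptides 2, 3 and 5, and had been backcrossed into the outbred wDah (white Dahomey) background, a stock that carries Wolbachia. The wDah flies without these deletions were the controls. All flies were mated once and kept on food of sugar, yeast and agar, and were dissected at day 10, 30 or 50. Brain, thorax free of gut, gut with the Malpighian tubules but not the crop, and fat body were taken. The fat body samples were the abdomen after removal of gut and ovaries, so they also held body wall and oenocytes. The 72 libraries of total RNA depleted of ribosomal RNA had 3 biological replicates per group, but the FPKM table gives 1 pooled value per group with the authors' 95% limits. Comparisons between groups in FPKM therefore have no replicate test, and limits of a gene are the sums of those of its transcripts. The day 10 samples were generated independently of the later ones, so a difference between day 10 and a later age cannot be told apart from a difference between batches.

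P450 enzymes insert an oxygen atom into small molecules with a heme iron that a conserved cysteine holds in place. In insects they fall into 4 clans. The CYP3 and CYP4 clans hold most enzymes that break down plant toxins and insecticides. The CYP2 and mitochondrial clans hold many that make or break down hormones. The gut, the Malpighian tubules and the fat body are known as the main sites of detoxification in the fly, and oenocytes make the hydrocarbons of the cuticle. The members belonged to the CYP3 clan (40 genes), the CYP4 clan (32), the mitochondrial clan (9) and the CYP2 clan (4), by family number.

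The signature around the heme-binding cysteine, as PROSITE defines it, is what the members share as a family. It was found in the translated coding sequence of 72 of the 82 members with a coding sequence in the annotation, and not in Cyp1. Its coding bases are shown for members that the results return to, each 30 bases long, 5′ to 3′ on the coding strand, from the BDGP6 reference genome. Capitals mark codons 1, 4, 6, 8 and 10 of the signature, and codon 8 encodes the cysteine.
Cyp4g1 (chrX:467732-467761, minus strand): TTTagcgctGGAcccAGAagcTGTgtgGGC
Cyp4d8 (chr3L:7493777-7493806, minus strand): TTCagtgcaGGAcccAGGaacTGTataGGT
Cyp6a18 (chr3R:27480095-27480124, plus strand): TTCggagaaGGTcctCGCaacTGCattGGA
Cyp12a4 (chr3R:19136913-19136942, plus strand): TTCggatttGGAccaCGGatgTGCgtgGGC
Cyp304a1 (chr3R:12965578-12965607, plus strand): TTTggagcgGGAaaaCGGctcTGTgccGGC
Cyp305a1 (chr3L:19810711-19810740, minus strand): TTCggcatgGGCagaCGCcgtTGTctgGGC
Cyp18a1 (chrX:18689359-18689388, minus strand): TTCggagtgGGCaggCGGatgTGCctgGGC
The sequences stand for the CYP4 clan (Cyp4g1 and Cyp4d8), the CYP3 clan (Cyp6a18), the mitochondrial clan (Cyp12a4) and the CYP2 clan (Cyp304a1, Cyp305a1 and Cyp18a1).

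The scale of the FPKM bears on every count below. Transcripts under 300 bases made up 28.2 to 41.9% of the summed FPKM of a group at day 10, but 67.3 to 85.1% at days 30 and 50. The FPKM sum ran between 718095.1 in dilp 2-3,5 brain at day 10 and 6500484 in dilp 2-3,5 fat body at day 30. Counts of genes were therefore made in 2 ways: with the FPKM of each group scaled to the same sum, and with FPKM as deposited. In the deposited FPKM, median-of-ratios factors of the 24 groups lay between 0.939 and 1.04. Levels and log2 ratios of single genes are given as deposited, with 1 FPKM added before the logarithm, which understates ratios of low genes. A gene entered a comparison if its mean over the 6 groups of the tissue was at least 1 on the scale used.

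The deleted genes and tissue markers were checked first. Ilp2 was listed at 0.58, 0 and 0 FPKM in dilp 2-3,5 brains at days 10, 30 and 50, against 388, 177 and 101 FPKM in wDah brains, and Ilp3 and Ilp5 were likewise near 0 in dilp 2-3,5 brains. Neuronal and glial markers (5 genes) summed to 180 to 258 FPKM in brain and to 5.02 to 43.1 FPKM elsewhere. Midgut markers (5 genes) summed to at least 28698 FPKM in gut groups. Markers of other tissues were not absent, however. The fat body list (6 genes, 3 of them yolk proteins) summed to 14991, 8396 and 6314 FPKM in dilp 2-3,5 brains at days 10, 30 and 50, against 23986, 14120 and 9635 FPKM in wDah brains. The midgut list summed to 635, 540 and 713 FPKM in dilp 2-3,5 thoraces, against 2774, 1274 and 1698 FPKM in wDah thoraces. In fat body it summed to 105, 109 and 114 FPKM in dilp 2-3,5 flies, against 2109, 464 and 626 FPKM in wDah flies. An ovary list (4 genes) summed to 136 and 61.2 FPKM in dilp 2-3,5 fat bodies at days 10 and 30, against 1304 and 279 FPKM in wDah fat bodies, and was higher in dilp 2-3,5 flies at day 50. In such bulk samples, fewer cells of a type and less RNA per cell cannot be told apart.

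P450 genes were most often highest in the gut. Of the 71 members with a mean of at least 1 FPKM over the 24 groups, 39 had their highest tissue mean in the gut, 20 in the fat body, 8 in the brain and 4 in the thorax. The gut thus held 54.9% of the members, against 26% of the 10122 genes that passed the same minimum, while the brain held 11.3% of the members and 32.5% of all genes. The gut was highest for 22 of the 35 CYP3 genes, 12 of the 25 CYP4 genes and 5 of the 8 mitochondrial genes, and for none of the 3 CYP2 genes that passed. The 14 members that missed the minimum included Cyp12d1-d and Cyp303a1, and 8 of the 85 members reached 1 FPKM in no group. No member was at 0 in all groups.

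**Figure D1:**
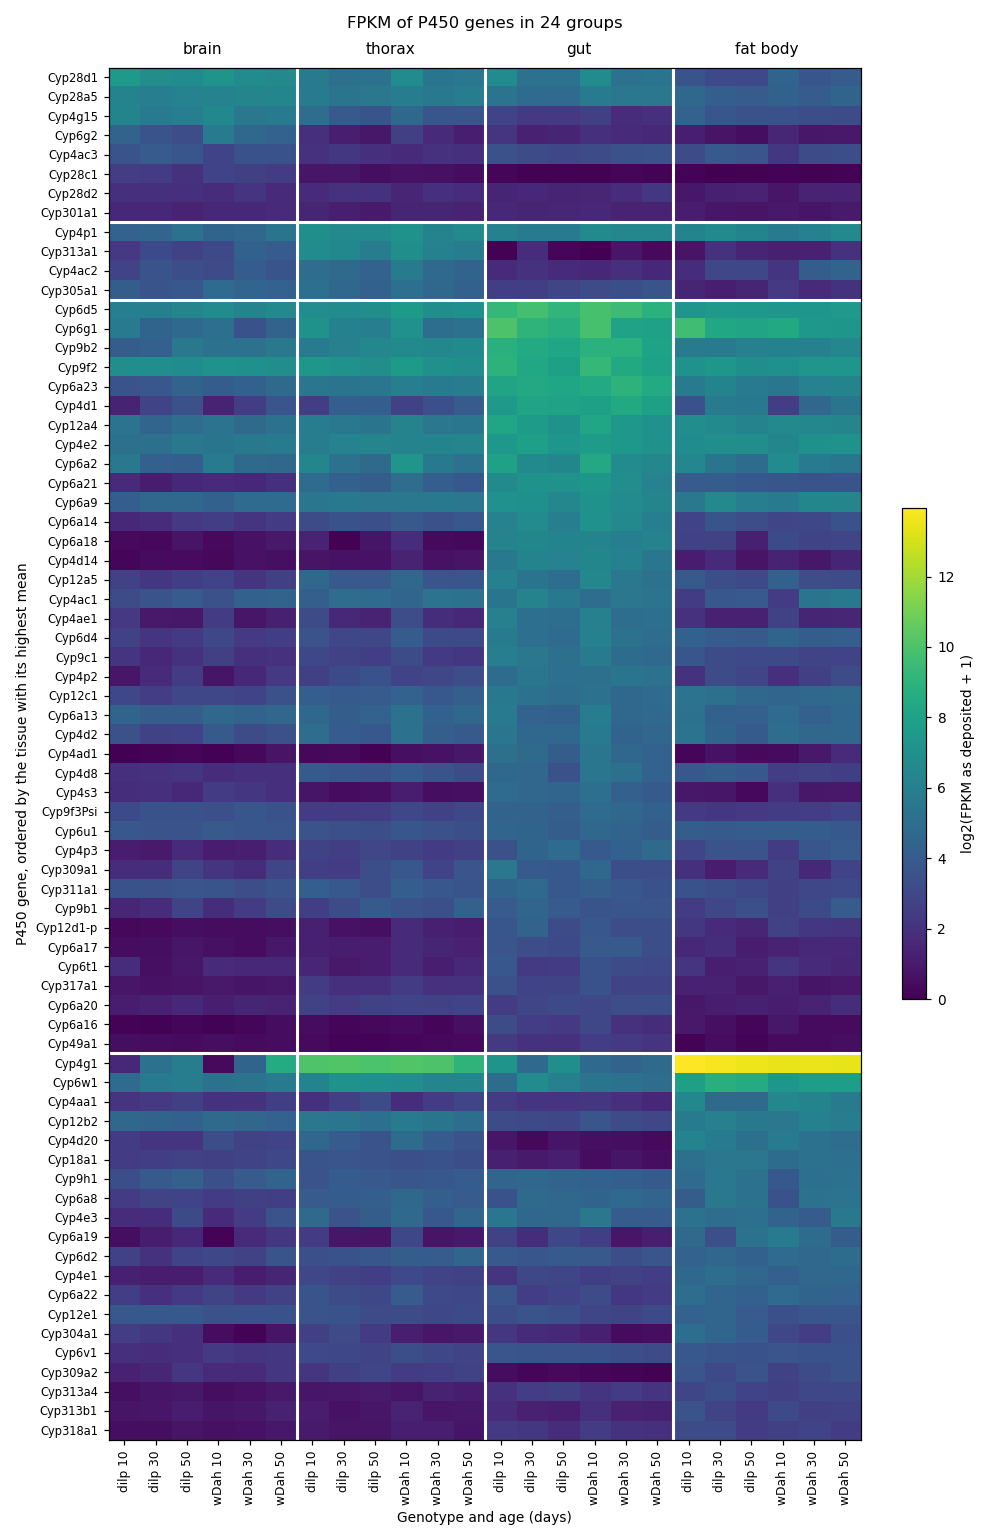
Heat map of log2(FPKM as deposited + 1) for the 71 P450 genes with a mean of at least 1 FPKM (rows, ordered by the tissue with the highest mean) in 24 groups (columns, dilp 2-3,5 left of wDah within each tissue, with days 10, 30 and 50). The block of 39 gut genes is the largest, and Cyp4g1 in fat body is the brightest row, at 10878 FPKM or more in all 6 groups.

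A stricter count asked in how many genes all 6 groups of a tissue lay above every group of the other tissues. In deposited FPKM this held in the gut for 24 of 71 members (33.8%), against 12.6% of all genes, and in the fat body for 10 members (14.1%), against 4.79%. It held for 4 members (5.63%) in the brain, against 15% of all genes, and for 1 member in the thorax, against 4.69%. With groups scaled by their FPKM sum, 67 members passed the minimum, and the counts were 8 in gut (11.9%), 1 in fat body, 1 in thorax and 0 in brain. The shares of all genes were then 5.96% in gut, 0.487% in fat body, 2.79% in thorax and 6.7% in brain. Both scales thus gave the gut a larger share of the members than of all genes, and the brain a smaller share.

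Cyp4g1, the decarbonylase that makes cuticular hydrocarbons in oenocytes (chrX:467057-469335), had by far the highest level of the members. In fat body it had 15630, 13692 and 12243 FPKM in dilp 2-3,5 flies at days 10, 30 and 50, against 11234, 11805 and 10878 FPKM in wDah flies. It was higher in dilp 2-3,5 flies at each age, by 0.48, 0.21 and 0.17 on the log2 scale, but the authors' limits overlapped widely at all 3 ages. Its share of all P450 FPKM in fat body lay between 83.4 and 85.3% in the 6 groups. The thorax had 530 to 1136 FPKM of it. The oenocyte markers eloF, FASN3, FarO, Desat1 and Cpr summed to 4552 to 6665 FPKM in dilp 2-3,5 fat bodies, against 3308 to 4620 FPKM in wDah fat bodies.

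**Figure D2:**
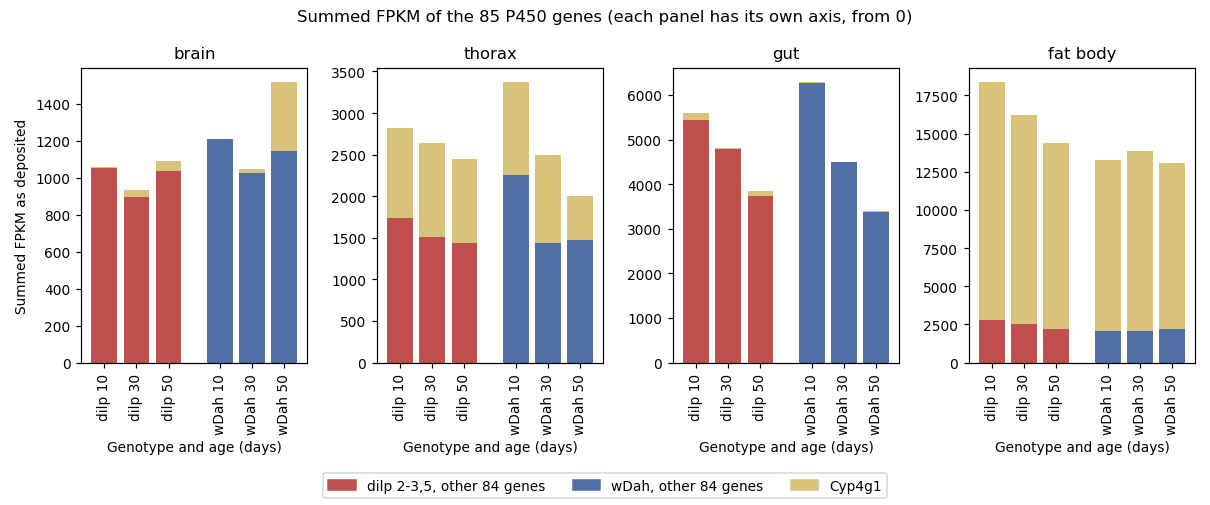
Summed FPKM as deposited of the 85 P450 genes by tissue, genotype and age (days), with dilp 2-3,5 left of wDah and Cyp4g1 stacked on the other 84 genes. Cyp4g1 makes up most of the fat body bars, and in the brain it is visible mainly in wDah at day 50, where it is 24.6% of the sum.

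Cyp4g1 was uneven in the 2 tissues where it is not abundant. In the brain it had 1.91, 37.7 and 56.2 FPKM in dilp 2-3,5 flies at days 10, 30 and 50, against 0.279, 21.1 and 373 FPKM in wDah flies. In the gut it had 145, 26.4 and 123 FPKM in dilp 2-3,5 flies, against 26.4, 20.8 and 27.4 FPKM in wDah flies. The oenocyte gene eloF, a fatty acid elongase, stood at its brain maximum in the same wDah group at day 50 (11.8 FPKM) and at its gut maxima in dilp 2-3,5 flies at days 10 and 50 (5.55 and 11.5 FPKM). In all other brain and gut groups eloF was at or under 3.94 FPKM. FASN3 and FarO peaked in the same brain and gut groups, but Desat1 and Cpr did not follow throughout. Desat1 had 295 and 273 FPKM in dilp 2-3,5 guts at days 10 and 50, against 367 and 282 FPKM in wDah guts. Cpr had 189 and 164 FPKM in these dilp 2-3,5 guts, against 213 and 134 FPKM in wDah guts. Its brain maximum was in wDah flies at day 10 (53.8 FPKM). The part of oenocytes in these Cyp4g1 values was not tested.

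The other abundant fat body members were Cyp6g1, Cyp6w1, Cyp6d5 and Cyp9f2, with means of 350, 276, 166 and 144 FPKM. The 10 members whose 6 fat body values lay above all others were Cyp4g1, Cyp6w1, Cyp4aa1, Cyp18a1, Cyp4d20, Cyp4e1, Cyp6a19, Cyp6a22, Cyp313a4 and Cyp313b1. Cyp4aa1 averaged 59.6 FPKM in fat body and 3.21 to 4.93 FPKM in the other tissues. Cyp18a1, the 26-hydroxylase that inactivates ecdysone, averaged 36.9 FPKM in fat body, 10.5 in thorax, 5.55 in brain and 0.853 in gut.

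The gut was led by Cyp6d5 (mean 701 FPKM), Cyp6g1 (582), Cyp9b2 (388), Cyp9f2 (381) and Cyp6a23 (358). Together these 5 genes took 14.8, 12.3, 8.18, 8.03 and 7.54% of the P450 FPKM in gut. No member dominated there as Cyp4g1 did in fat body. Several lower genes were more restricted to the gut. Cyp4d14 averaged 65.3 FPKM in gut and 1.34 FPKM in fat body, the next tissue, a ratio of 48.7. Cyp4ad1 had a ratio of 36.4 and Cyp6a18 of 13.6. Cyp12a4, a mitochondrial enzyme whose overexpression gives resistance to lufenuron, averaged 208 FPKM in gut and 32.2 to 89.4 FPKM elsewhere. Cyp6a17, known for its part in temperature preference, averaged 11 FPKM in gut and 0.569 FPKM in brain.

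In the thorax Cyp4g1 (991 FPKM) was followed by Cyp9f2 (143), Cyp6d5 (129), Cyp4p1 (105) and Cyp6w1 (104). Among members that passed the minimum, Cyp313a1 was the only one whose 6 thorax values lay above all other groups, on both scales. Cyp4d21, under the minimum, also had its 6 thorax values (0.545 to 5.56 FPKM) above all others (at most 0.291 FPKM). Cyp313a1 had 104, 91.1 and 55.8 FPKM in dilp 2-3,5 thoraces at days 10, 30 and 50, against 120, 67.5 and 56 FPKM in wDah thoraces. It had at most 19.1 FPKM elsewhere.

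Brain members were lower and more even. Cyp28d1 led with 125 FPKM, ahead of Cyp9f2 (121), Cyp6d5 (80.4), Cyp28a5 (73.5) and Cyp4g15 (63.1). The ranges of Cyp28d1 (92.2 to 179 FPKM) and Cyp9f2 (110 to 138 FPKM) over the 6 brain groups overlapped. Cyp28d1 is known for the breakdown of nicotine. Cyp4g15, the paralogue of Cyp4g1 found in the nervous system, was 3.66 times higher in brain than in thorax, the next tissue. Cyp6g2, which gives insecticide resistance when overexpressed, was 9.84 times higher in brain than in thorax, and Cyp28c1 7.79 times.

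The comparison of dilp 2-3,5 with wDah flies asked which P450 genes follow the loss of insulin-like peptides in each tissue. A member was called if it differed by at least 2-fold in the same direction at all 3 ages. Scaled by FPKM sum, the thorax had 1 such member of 60, Cyp304a1, which was higher in dilp 2-3,5 flies. Its scaled values were 5.46, 2.95 and 2.11 in dilp 2-3,5 thoraces at days 10, 30 and 50, against 1.11, 0.312 and 0.487 in wDah thoraces. It thus passed the minimum only through the dilp 2-3,5 groups, so that its call is a description and no support for a difference. The thorax had 0 members called lower, and 0.114 and 0.707% of all genes were called higher and lower. Brain, gut and fat body had 0 members called in either direction, of 56, 63 and 58 that passed the minimum. Of all genes, 0.112 and 0.225% were called higher and lower in brain, 0.491 and 0.151% in gut, and 0.0863 and 0.395% in fat body. With so few genes called in all, these counts say little about the members.

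With deposited FPKM, Cyp304a1 was called higher in brain and thorax, Cyp4d8 higher in fat body and Cyp6g2 lower in brain. Cyp304a1 again passed the minimum in brain and thorax only through the dilp 2-3,5 groups, since its wDah values average under 1 FPKM in both tissues, while Cyp4d8 and Cyp6g2 passed it in both genotypes. The members that passed were 61 in brain, 63 in thorax, 68 in gut and 65 in fat body. The shares of all genes called higher and lower were 0.157 and 0.419% in brain, 0.127 and 0.909% in thorax, 0.424 and 0.424% in gut, and 0.233 and 0.511% in fat body. When the limits of the authors also had to lie apart at all 3 ages, 0 members were called on either scale.

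Cyp304a1 (chr3R:12963791-12965923, plus strand) was above wDah in all 4 tissues at every age, though not with the largest single ratios of the members. Those were of Cyp4g1 in brain at day 50 (log2 ratio of -2.71) and in gut at day 10 (2.42), where the authors' limits overlapped in both. In brain Cyp304a1 had 4.79, 3.86 and 2.85 FPKM in dilp 2-3,5 flies at days 10, 30 and 50, against 0.358, 0.0981 and 0.722 FPKM in wDah flies. In thorax it had 5.21, 7.98 and 4.57 FPKM in dilp 2-3,5 flies, against 1.24, 0.788 and 0.947 FPKM in wDah flies. In gut it had 3.68, 2.22 and 2.04 FPKM in dilp 2-3,5 flies, against 1.37, 0.342 and 0.408 FPKM in wDah flies. All 3 values of dilp 2-3,5 flies were thus above all 3 of wDah flies in brain, thorax and gut. In fat body, its highest tissue, it had 31.4, 22.6 and 15.6 FPKM in dilp 2-3,5 flies, against 6.93, 4.78 and 9.48 FPKM in wDah flies, and the groups did not overlap either. The log2 ratios were 2.09, 2.14 and 1.16 in brain, 1.47, 2.33 and 1.52 in thorax, 0.98, 1.26 and 1.11 in gut, and 2.03, 2.03 and 0.66 in fat body. The level was low outside the fat body, and the authors' limits overlapped in 11 of the 12 contrasts, with day 30 in brain the exception.

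Cyp6g1, whose overexpression gives resistance to DDT, was also higher in dilp 2-3,5 flies in all 4 tissues. In fat body it had 812 and 281 FPKM in dilp 2-3,5 flies at days 10 and 50, against 356 and 167 FPKM in wDah flies, and it was higher in dilp 2-3,5 flies at day 30 too. In gut it had 1071, 536 and 432 FPKM in dilp 2-3,5 flies at days 10, 30 and 50, against 940, 263 and 252 FPKM in wDah flies. Day 10 stood above the later ages in both genotypes and both tissues. The log2 ratios were 1.19, 0.89 and 0.75 in fat body, 0.19, 1.02 and 0.78 in gut, 0.11, 1.10 and 0.74 in thorax, and 0.60, 0.96 and 0.30 in brain. The limits overlapped in all 12 contrasts. The sum of the Malpighian tubule list was also higher in dilp 2-3,5 guts at days 30 and 50, but not at day 10. Within it, Alp4 was lower in dilp 2-3,5 guts at each age, while CapaR, Lkr and ZnT35C were higher at each age. The part of the list was not tested. Cyp6g1 and Cyp6g2 lie tail to tail on arm 2R and share 94 bases on opposite strands, and their reads there can be told apart only with strand. The same holds for Cyp6a19, one of the 10 fat body members, which shares 397 bases with the more abundant Cyp6a9 on the opposite strand.

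**Figure D3:**
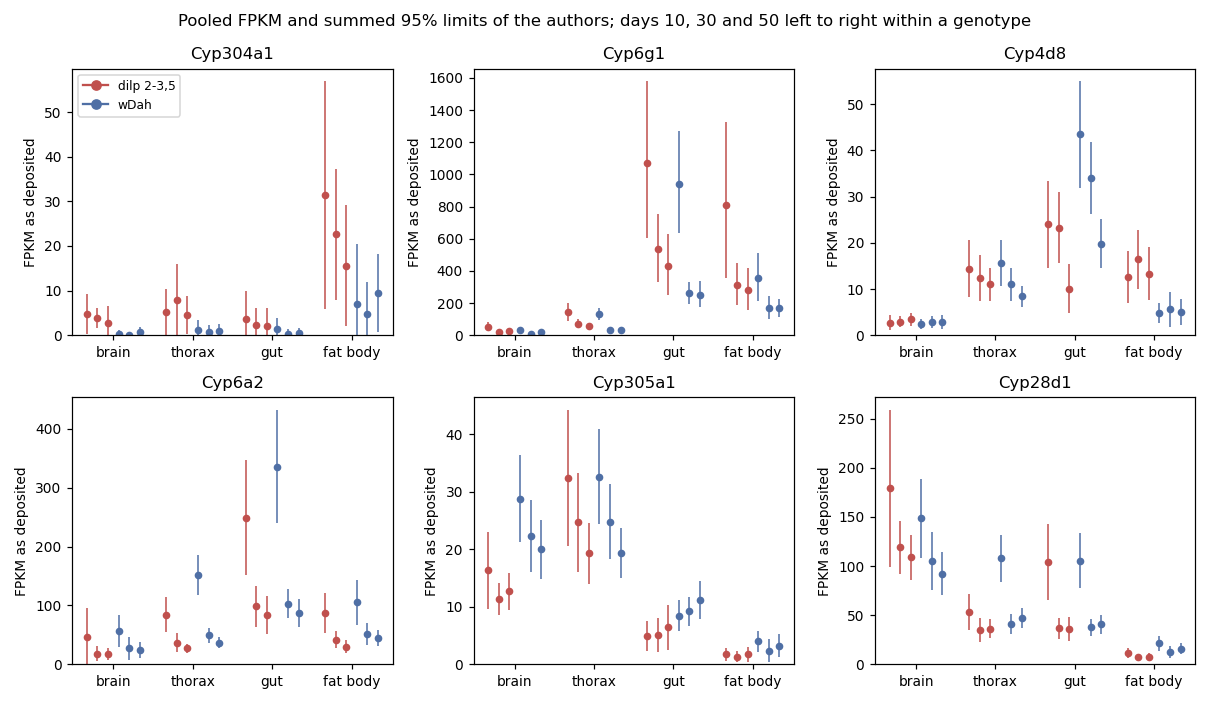
Pooled FPKM as deposited (points) with the summed 95% limits of the authors (lines) for 6 P450 genes in 4 tissues, dilp 2-3,5 left of wDah, with days 10, 30 and 50 in order within each genotype. Cyp304a1 is higher in dilp 2-3,5 flies in every tissue, while Cyp4d8 is higher in their fat body and lower in their gut.

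Over all 12 contrasts of tissue and age, Cyp304a1, Cyp6g1 and Cyp12e1 were above wDah in every contrast, 3 of the 52 members that passed in all tissues, against 1.41% of 7788 genes. Cyp304a1 passed the minimum in brain, thorax and gut only through the dilp 2-3,5 groups. Its wDah values average under 1 FPKM in these tissues, so its place in this count is a description and no support for a difference. Cyp12e1 had log2 ratios between 0.14 and 1.01. Cyp6a2, Cyp6d4, Cyp305a1 and the pseudogene Cyp9f3Psi were below wDah in every contrast, 4 members, against 1.26% of all genes. With scaling by FPKM sum, 46 members of 6852 genes passed in all tissues. Of these, Cyp12e1 and Cyp6g1 were above in all 12 contrasts, against 0.701% of all genes, and 0 members were below, against 0.452%. Cyp304a1 was above in all 12 on this scale too, but its scaled gut mean missed the minimum, so it was not counted. With median-of-ratios scaling the members above were unchanged, and Cyp305a1 was no longer below in all 12. The labels do not say whether tissues of a group came from the same flies, so the 12 contrasts may not be independent.

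Cyp6a2, a gene tied to DDT resistance, had 84.3, 36.6 and 27 FPKM in dilp 2-3,5 thoraces at days 10, 30 and 50, against 152, 48.9 and 36.8 FPKM in wDah thoraces. The ratio was largest there at day 10 (log2 ratio -0.84), and the limits lay apart. Cyp305a1 had 16.3, 11.4 and 12.7 FPKM in dilp 2-3,5 brains, against 28.8, 22.3 and 20 FPKM in wDah brains, with log2 ratios of -0.79, -0.91 and -0.62. Its log2 ratios were -0.68, -0.75 and -0.72 in gut and -0.89, -0.55 and -0.64 in fat body. In thorax, where the gene was highest, the genotypes were within 0.01 of each other on this scale at each age.

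Cyp4d8 (chr3L:7493557-7496197, minus strand) moved in opposite directions in 2 tissues. In fat body it had 12.6, 16.4 and 13.3 FPKM in dilp 2-3,5 flies at days 10, 30 and 50, against 4.88, 5.61 and 5.08 FPKM in wDah flies. In gut it had 24, 23.3 and 10.1 FPKM in dilp 2-3,5 flies, against 43.5, 34 and 19.8 FPKM in wDah flies. The log2 ratios were 1.21, 1.40 and 1.24 in fat body and -0.83, -0.53 and -0.91 in gut. The fat body limits lay apart at day 30 only. Brain and thorax ratios lay between -0.11 and 0.35.

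Cyp6g2 had 20.3, 11.3 and 8.86 FPKM in dilp 2-3,5 brains at days 10, 30 and 50, against 50.1, 23.7 and 19.6 FPKM in wDah brains. Its log2 ratios of -1.26, -1.01 and -1.07 put it just inside the threshold. On the scaled values its log2 ratios at days 30 and 50 were -0.94 and -0.52, which ended the call. Just outside the threshold in deposited FPKM were Cyp313a1 in brain (log2 ratio of -0.76 at day 10) and Cyp304a1 in gut (0.98 at day 10). Cyp313a1 had 4.03, 7.83 and 5.83 FPKM in dilp 2-3,5 brains, against 7.5, 19.1 and 15.6 FPKM in wDah brains.

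**Figure D4:**
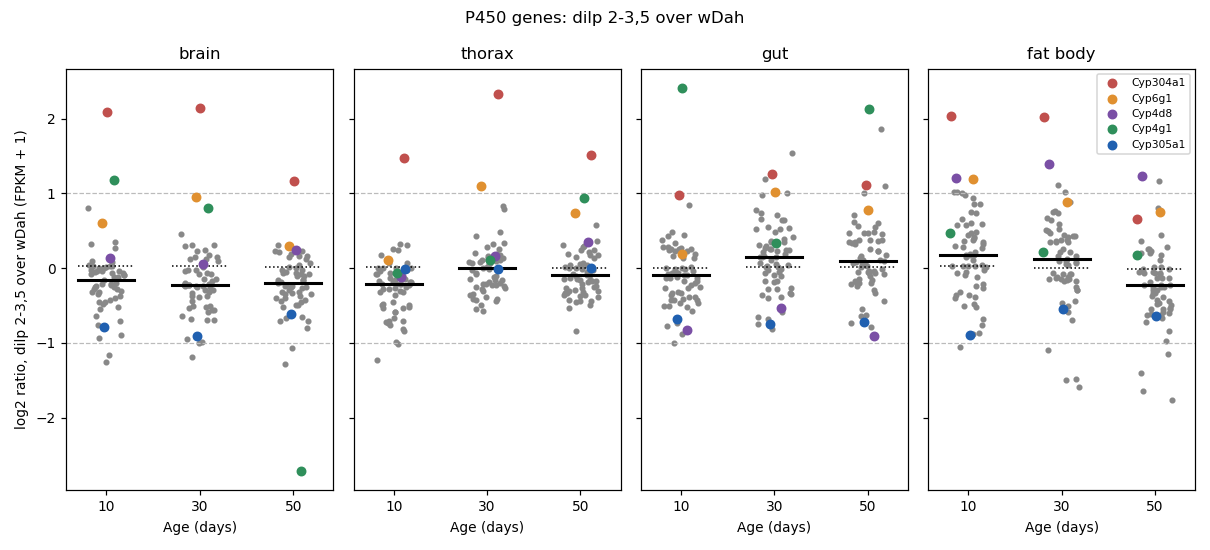
log2 ratio of dilp 2-3,5 over wDah (FPKM as deposited + 1) by age (days) in each tissue for the P450 genes that passed the minimum (points, 61 to 68 per tissue, 5 of them coloured), with the median of these genes (solid bar), the median of all genes (dotted bar) and 2-fold (dashed lines). The brain medians of the P450 genes lie between -0.22 and -0.15, below the dotted bars, and Cyp304a1 is the highest point in all brain and thorax columns.

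Smaller differences leaned downward in brain and, less evenly over the ages, in thorax. In dilp 2-3,5 brains 35 of 61 members were below wDah at all 3 ages (57.4%), against 25.4% of all genes, and 9 were above (14.8%), against 33.2%. The median log2 ratio of the members in brain was -0.15, -0.22 and -0.20 at days 10, 30 and 50, and that of all genes 0.02, 0.03 and 0.01. In thorax 27 of 63 members were below (42.9%), against 20% of all genes, and 7 were above, against 22.2%. The thorax medians of the members were -0.208, -0.0007 and -0.098 at days 10, 30 and 50, and those of all genes 0.012, 0.004 and 0.004. At day 30 the thorax median was thus near that of all genes. In gut 20 of 68 were above (29.4%), against 25.5%, and 17 below (25%), against 23.5%. In fat body 14 of 65 were above (21.5%), against 16.5%, and 15 below (23.1%), against 13.1%. This count, whatever the size of the difference, was chosen after the values were seen.

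The counts in brain and thorax depended on the scale, and so did those of all genes. With scaling by FPKM sum, 10 of 56 members were below wDah at all 3 ages in brain (17.9%), against 6.76% of all genes, and 9 were above (16.1%), against 31.5%. In thorax 20 of 60 were below (33.3%), against 15.3%, and 12 were above (20%), against 15% of all genes. On that scale the median of all genes itself was shifted in brain by 0.09, -0.05 and 0.38 at days 10, 30 and 50, and the members' medians of -0.13, -0.22 and 0.24 stayed below it at each age. In thorax the members' medians were 0.01, -0.05 and -0.20, against 0.21, -0.07 and -0.12 over all genes. They were thus lower than those of all genes at days 10 and 50 but not at day 30. The sums of the fat body and midgut marker lists were both lower in dilp 2-3,5 flies at each age in brain and in thorax. Beside the values given above, the fat body list summed to 36705, 25760 and 14778 FPKM in dilp 2-3,5 thoraces at days 10, 30 and 50, against 55922, 32271 and 18340 FPKM in wDah thoraces. Within this list apolpp went the other way in thorax at days 30 and 50, with 2668 and 2057 FPKM in dilp 2-3,5 flies, against 2555 and 1977 FPKM. FASN1 did so at day 30 only, with 492 against 478 FPKM. The midgut list summed to 43.5, 73 and 99.9 FPKM in dilp 2-3,5 brains, against 83.7, 109 and 222 FPKM in wDah brains. The muscle list (5 genes) was higher in dilp 2-3,5 thoraces, with 1812, 1142 and 1732 FPKM at days 10, 30 and 50, against 1037, 799 and 674 FPKM in wDah thoraces. Their part in the lower P450 levels was not tested.

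The gene lists by role, chosen from known functions of the genes, had few calls. Of all genes, 0.127 to 0.909% were called in a given tissue and direction in deposited FPKM. Counts of 0 or 1 call in lists this short, here and below, therefore say little about the roles. The list for insecticides and plant toxins held 11 members, of which 9 passed the minimum in brain, 10 in thorax, 10 in gut and 9 in fat body. In deposited FPKM 1 of them was called, Cyp6g2 in brain. The median log2 ratio of the list was -0.23 in brain, -0.22 in thorax, 0.14 in gut and -0.05 in fat body. Within it, Cyp6w1 stood out in the gut, with 29.3, 106 and 66.6 FPKM in dilp 2-3,5 flies at days 10, 30 and 50, against 40.7, 35.7 and 30.5 FPKM in wDah flies. The limits lay apart at days 30 and 50, but the direction was the other way at day 10. The sum of the Malpighian tubule list ran in the same directions in gut, but its genes did not move together. Alp4 had 116, 27.2 and 19.7 FPKM in dilp 2-3,5 guts, against 211, 78.5 and 79.6 FPKM in wDah guts. Uro had 163, 373 and 432 FPKM, against 164, 167 and 240 FPKM, and CapaR, Lkr and ZnT35C were higher in dilp 2-3,5 guts at each age. The part of the list was not tested. Cyp28d1 was lower in dilp 2-3,5 fat bodies, with 11.1, 7.34 and 7.47 FPKM, against 21.1, 12.5 and 15.6 FPKM in wDah fat bodies, while in brain its log2 ratios were 0.27, 0.17 and 0.23.

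Members tied to behaviour had low levels and 0 calls, with only 1 to 3 of the 3 genes passing the minimum in a tissue. Cyp6a20, known from aggression between males, averaged 1.53 FPKM in brain, and Cyp4d21, known from male courtship, was highest in thorax at 2.03 FPKM. The 2 hydrocarbon genes, Cyp4g1 and Cyp4g15, had 0 calls in any tissue. Cyp12d1-p averaged 11.9 FPKM in gut and its near-identical neighbour Cyp12d1-d 0.121 FPKM, and how the reads were split between the 2 copies is uncertain.

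Among genes listed as partners of the P450 enzymes, 6 genes of the list of 7 were counted, since Fdxh and Fdx1 name the same gene. The list had 1 call, Cyt-b5-r in gut, which was called higher on both scales. Cyt-b5-r stands for cytochrome b5-related, and these data do not show that it is a partner of P450 enzymes. It had 72, 28.9 and 34.1 FPKM in dilp 2-3,5 guts at days 10, 30 and 50, against 28.3, 10.1 and 14 FPKM in wDah guts. In fat body it had 2011, 1247 and 1005 FPKM in dilp 2-3,5 flies at days 10, 30 and 50, against 1085, 979 and 1064 FPKM in wDah flies. It was thus higher in dilp 2-3,5 fat bodies at days 10 and 30 but not at day 50. Cyt-b5-r averaged 1232 FPKM in fat body and 31.2 FPKM in gut. The fat body marker list summed to 1781, 907 and 1083 FPKM in dilp 2-3,5 guts, against 1258, 496 and 459 FPKM in wDah guts. Its part in the gut call of Cyt-b5-r was not tested. Cpr, the reductase that passes electrons to microsomal P450s, averaged 733 FPKM in fat body, 172 in gut, 119 in thorax and 39.4 in brain. That order of tissues is not the order in which most members were highest. Of the 10 regulators listed, among them cnc, Keap1, Hr96 and EcR, 9 passed the minimum in each tissue and 0 were called, with log2 ratios between -0.79 and 0.59 over all tissues. Of the 7 ecdysone synthesis genes 0 passed the minimum in brain and 1, shd, passed in each of the other tissues.

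The age comparison was made between days 50 and 30, since the day 10 samples were generated independently. It is not stated whether the day 30 and day 50 samples were generated together. A member was called if it differed by at least 2-fold in the same direction in both genotypes. With groups scaled by FPKM sum, 1 member of 56 was called higher in brain, Cyp4g1, against 0.551% of all genes, and 0 were called lower, against 0.157%. In thorax 0 members were called, with 0.662 and 0.171% of all genes called higher and lower. The gut had 0 members called, against 0.302 and 0.126% of all genes. In fat body 0 members were called, against 0.419 and 0.0616%. Just outside the threshold on this scale was Cyp309a1 in thorax, with 0.98 in dilp 2-3,5 flies. The brain call of Cyp4g1 depended on the scale. In deposited FPKM it had 56.2 at day 50 and 37.7 at day 30 in dilp 2-3,5 brains, which is under 2-fold. In wDah brains it had 373 FPKM at day 50 and 21.1 FPKM at day 30. The authors' limits overlapped in both genotypes. On the scaled values the median log2 ratio of all genes was itself 0.45 in dilp 2-3,5 brains.

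With deposited FPKM, Cyp309a1 and Cyp4e3 were called higher at day 50 in brain, against 0.482% of all genes, and the limits of both lay apart in both genotypes. Cyp309a1 had 6.16 FPKM at day 50 and 2.56 FPKM at day 30 in dilp 2-3,5 brains, and 6.51 FPKM at day 50 and 2.52 FPKM at day 30 in wDah brains. Cyp4e3 had 7.9 FPKM at day 50 and 2.55 FPKM at day 30 in dilp 2-3,5 brains, and 10.7 FPKM at day 50 and 4.51 FPKM at day 30 in wDah brains. The log2 ratios of day 50 over day 30 were 1.01 and 1.09 for Cyp309a1 in dilp 2-3,5 and wDah brains, and 1.33 and 1.09 for Cyp4e3. Cyp9b1 was just outside the threshold, at 1.09 and 0.81. The midgut list also moved with age in these brains, with 99.9 FPKM at day 50 and 73 FPKM at day 30 in dilp 2-3,5 flies, and 222 FPKM at day 50 and 109 FPKM at day 30 in wDah flies, and its part was not tested. Of all genes, 0.335% were called lower in brain and 0 members were. In the other tissues 0 members were called in deposited FPKM, while 0.391 and 0.338% of all genes were called higher and lower in thorax, 0.301 and 0.212% in gut, and 0.178 and 0.344% in fat body.

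The change of the members' sum in gut depended on the scale. The deposited FPKM sum was lower at day 50 than at day 30 in both genotypes, 3850 against 4807 in dilp 2-3,5 flies and 3393 against 4507 in wDah flies. With scaling by FPKM sum it was higher at day 50 in dilp 2-3,5 flies, 1426 against 1156, and lower in wDah flies, 937 against 1009. The median log2 ratio of the members in gut, in deposited FPKM, was -0.12 in dilp 2-3,5 flies and -0.16 in wDah flies, against -0.01 and -0.02 over all genes. On the scaled values it was 0.35 and 0.07, against 0.45 and 0.19 over all genes. In brain it was 0.21 and 0.20 in deposited FPKM, against medians of 0.00 and -0.02 over all genes. Day 10 groups had the highest P450 sums in gut and thorax of both genotypes, which cannot be told apart from the separate generation of those samples.

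Cyp18a1 was the only member with a locus in the circRNA tables, and so the only one with values per library. Its circRNA spans chrX:18689991-18690987 on the minus strand and joins exon 4 back to exon 2, with 817 exonic bases in 3 coding exons. The junction is shown with the last 15 bases of exon 4 in lower case and the first 15 bases of exon 2 in capitals.
Cyp18a1 circRNA junction: tcactcgcccacaagGCATTATCAACAGCA
Reads over this junction were counted by the authors as circular, and reads spliced linearly at the same positions as linear. The 72 libraries held 1588 linear and 114 circular reads at this locus. Linear reads are given as RPM, reads scaled to 1000000 linear reads over the 1194 circRNA loci of the library. A library held 60382 to 245298 such reads, so the value is relative to those loci and not to all RNA.

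The order of tissues was that of the FPKM. Over 18 libraries each, linear reads averaged 325 ± 128 RPM in fat body, 93.5 ± 42.8 in thorax, 71.7 ± 35.1 in brain and 11.7 ± 13.2 in gut (SD, n = 18). The lowest fat body library had 157 RPM and the highest gut library 49.7. Thorax and brain overlapped, with ranges of 25.1 to 184 and 24.1 to 178 RPM.

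Linear reads of Cyp18a1 were higher in dilp 2-3,5 than in wDah thoraces. At day 10 the 3 libraries had 141, 184 and 168 RPM in dilp 2-3,5 thoraces, against 78.9, 90.8 and 116 in wDah thoraces. At day 30 they had 65.4, 79.3 and 87.4 in dilp 2-3,5 thoraces, against 46, 57.1 and 25.1 in wDah thoraces. At day 50 they had 148, 65.6 and 104 in dilp 2-3,5 thoraces, against 62.3, 76.7 and 87.9 in wDah thoraces. The genotypes did not overlap at days 10 and 30 and overlapped at day 50. The mean log2 difference was 0.68 in an exact two-sided permutation test within age, with p = 0.0015 and 0.006 after Benjamini-Hochberg adjustment over 4 tissues. The pooled FPKM of the gene differed less in thorax, by 0.18, 0.21 and 0.18 on the log2 scale.

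**Figure D5:**
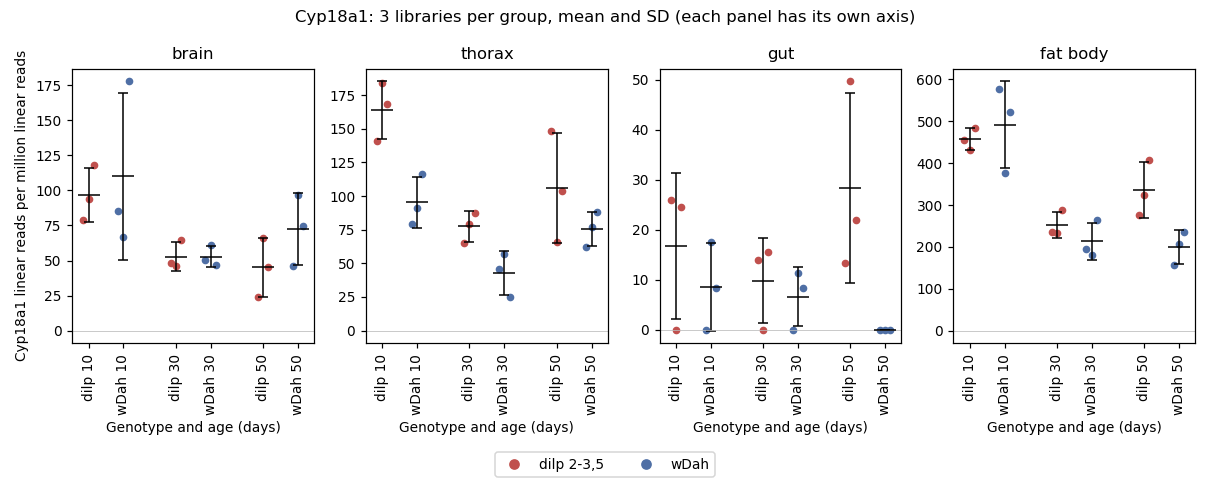
Cyp18a1 linear reads (RPM) in each of the 72 libraries (points, 3 per group) with the mean and SD, by tissue and age (days), dilp 2-3,5 left of wDah, each panel on its own axis. In thorax the points of the genotypes are separate at days 10 and 30, and the 3 wDah gut libraries at day 50 are at 0.

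The other tissues did not pass after adjustment. The log2 difference was 0.30 in fat body (exact p = 0.049, adjusted 0.0653) and 1.15 in gut (exact p = 0.0398, adjusted 0.0653). In brain it was -0.25 (exact p = 0.29, adjusted 0.29). In fat body at day 50 the libraries had 275, 325 and 408 RPM in dilp 2-3,5 flies, against 157, 207 and 236 in wDah flies, without overlap, while at day 10 they had 456, 431 and 483 in dilp 2-3,5 flies, against 578, 376 and 522 in wDah flies. Gut libraries held 0 to 3 linear reads each, so the gut value rests on 14 reads in 9 dilp 2-3,5 libraries and 5 reads in 9 wDah libraries. The 3 wDah gut libraries at day 50 had 0 reads, which allows up to 12.3 RPM over the group, for counting error only.

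Between days 50 and 30 no tissue passed the exact permutation test within genotype, whose smallest possible p was 0.005. The log2 differences were 0.61 in thorax (exact p = 0.035, adjusted 0.14), 0.15 in fat body (exact p = 0.36), 0.17 in gut (exact p = 0.735) and 0.04 in brain (exact p = 0.865).

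The circular share of Cyp18a1 could be compared in fat body and thorax, which had at least 20 circular reads. In fat body 40 of 546 reads were circular in dilp 2-3,5 flies (7.33%, exact Clopper-Pearson 95% interval 5.29 to 9.84%), against 41 of 525 reads in wDah flies (7.81%, 5.66 to 10.4%). In thorax 12 of 221 reads were circular in dilp 2-3,5 flies (5.43%, 2.84 to 9.29%), against 10 of 134 reads in wDah flies (7.46%, 3.64 to 13.3%). These intervals cover counting error only. The mean difference over libraries was -1.48 percentage points in fat body (exact permutation p = 0.565, adjusted 0.625) and -0.98 in thorax (exact permutation p = 0.625, adjusted 0.625). A difference between genotypes was not detectable at this depth.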

How the data were processed

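Total RNA of 72 libraries was analysed from tables the authors deposited. The authors aligned reads to BDGP6 with HISAT2 2.0.4, with StringTie 1.3.0 and Cufflinks also named in their processing notes, and Cuffdiff 2.2.1 gave the deposited FPKM as 1 pooled value per group with 95% limits. For circRNAs they used STAR 2.5.2b and deposited counts of circular and linear reads per library at 1194 loci. FPKM were summed per gene, scaled to the same sum in each group or used as deposited, and compared as log2(FPKM + 1) for genes with a mean of at least 1. Alternatives were a pseudocount of 0.1, a minimum of 5 or none, median-of-ratios scaling, and a sum over transcripts of 300 bases or more. Cyp18a1 counts, with 0.5 reads added, were tested by exact permutation over libraries, at linear totals of 60382 to 245298 per library, and scripts were tested on simulated data. Named genes were the 5 highest members per tissue, members called or next to the threshold, and members of the role lists, with a few others chosen after their values were seen. The members and lists were chosen with earlier results of these data known. The authors' own test results (p-values and fold changes) and the tables of 6 polysome libraries were not used. Python 3.11.15, numpy 2.4.6, pandas 2.3.3, matplotlib 3.10.9 and biopython 1.88 were used.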

Additional observations from a re-analysis of the deposited data

Results flagged for a closer look

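For 2 P450 genes the difference between dilp 2-3,5 and wDah flies ran in opposite directions in different tissues at all 3 ages, with a mean of at least 1.5-fold each way. The FPKM are pooled, so these differences between tissues were not tested, and 72 genes in all met the same condition. For Cyp4d8 the mean log2 ratio of dilp 2-3,5 over wDah was 2.04 higher in fat body than in gut. For Cyp309a1 it was 1.33 higher in gut than in thorax and 1.46 higher in gut than in fat body. Cyp309a1 had 44.2, 14.7 and 13.5 FPKM in dilp 2-3,5 guts at days 10, 30 and 50, against 24.1, 9.01 and 8.88 FPKM in wDah guts. In thorax it had 4.98, 4.4 and 9.06 FPKM in dilp 2-3,5 flies, against 13, 5.95 and 11.9 FPKM in wDah flies. In fat body it had 2.83, 1.13 and 2.18 FPKM in dilp 2-3,5 flies, against 5.46, 1.89 and 6.03 FPKM in wDah flies. The midgut markers, lower in dilp 2-3,5 thoraces and fat bodies, moved with it there, and their part was not tested.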

How the results depend on the processing

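Counts of P450 genes were small and moved with the scale. For genes called higher in dilp 2-3,5 brain, the count of 0 became 1 with deposited FPKM, median-of-ratios scaling, a sum over transcripts of 300 bases or more, and a pseudocount of 0.1. Genes called lower in brain became 1 with deposited FPKM and with median-of-ratios scaling, and higher in fat body became 1 with these 2 scales and with the pseudocount of 0.1. Higher in gut became 1 with the sum over transcripts of 300 bases or more. Higher in thorax became 0 with a minimum of 5 and with limits apart. Higher at day 50 in brain became 2 with deposited FPKM and with median-of-ratios scaling, 3 with the sum over transcripts of 300 bases or more, 4 with the pseudocount of 0.1 and 0 with limits apart. In thorax it became 1 with the sum over transcripts of 300 bases or more and 2 with the pseudocount of 0.1, and in fat body 3 with that pseudocount. The counts of genes with all 6 values above other tissues in brain, gut and fat body were 4, 24 and 10 with deposited FPKM, 4, 25 and 9 with median-of-ratios scaling, and 6, 25 and 9 with the sum over transcripts of 300 bases or more. In thorax this count was 2 with the last 2 of these scales. With no minimum it was 1 in brain and 2 in thorax. Chosen after the data were seen, deposited FPKM with a pseudocount of 0.1 gave 1 gene higher and 1 lower in brain, 1 higher in gut and 1 in fat body, and 2 higher at day 50 in brain. Deposited FPKM with limits apart gave 2 higher at day 50 in brain and 0 higher in thorax.

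For Cyp18a1 linear reads, leaving out 1 library at a time gave log2 differences between genotypes of 0.58 to 0.78 in thorax (adjusted exact p 0.001 to 0.021), 0.94 to 1.44 in gut (0.0145 to 0.123) and 0.24 to 0.36 in fat body (0.0395 to 0.159), and between days 50 and 30 of 0.45 to 0.76 in thorax (0.02 to 0.38). The gut difference passed without replicate 2 of dilp 2-3,5 gut at day 10 (1.44) or day 30 (1.34). The fat body difference passed without wDah replicate 1 at day 10 (0.35) or replicate 3 at day 30 (0.36), and the thorax age difference without dilp 2-3,5 replicate 2 at day 50 (0.76). With 3 reads added the gut difference was 0.55 (exact permutation, adjusted p = 0.018). With the replicate number as a block, the thorax difference between genotypes was 0.68 (exact permutation p = 0.00781, adjusted 0.0312), and the replicate block changed no call. Same-numbered libraries did not deviate together: all 3 pairs correlated above 0.1 in 0 of 12 comparisons over 918 loci. The pooled FPKM allow no pairing. Depth limits the gut values of Cyp18a1 and its circular share.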
